A study of Mus musculus with 19 samples.

Results

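The regions described here were CpG-rich SOX3 peaks that lay outside promoters and were found in both ChIP-seq replicates, 565 of the 58351 peaks listed for replicate 1. They were chosen by 4 values: at least 50% of the peak's length was covered by a single replicate 2 peak, no curated RefSeq transcription start site lay within 2 kb of the peak, and the 500 bp around its midpoint had an observed to expected CpG ratio of at least 0.6 and a GC content of at least 50%. Overlap, distance, CpG content and peak scores therefore describe the selection and were not tested. The samples were mouse testis at postnatal day 7, with no genotype or treatment given in the labels, and comprised 2 SOX3 ChIP-seq replicates, each called against input by the authors, and 2 replicates of SOX3 ChIP-nexus, in which an exonuclease trims the precipitated DNA towards the bound protein. For transcription factor ChIP the study's methods describe seminiferous tubules pooled from several mice, so germ cells, Sertoli cells and other somatic cells contributed chromatin. The labels name the SOX3 antibodies sc-101155 and AB5772 for all 4 samples and do not say whether the replicates came from separate animals.

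CpG islands are stretches of the genome that keep a high density of CpG dinucleotides because they usually stay unmethylated in the germ line, and most of them coincide with promoters. Islands away from annotated promoters are called orphan islands, and many are known to act as starts of unannotated or tissue-restricted transcripts or as regulatory elements of developmental genes. SOX3, encoded on the X chromosome, is a high-mobility-group transcription factor of the SOXB1 group and marks undifferentiated spermatogonia in the postnatal testis.

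The central 150 bp of 3 regions shows the sequence feature used by the rule, with every CpG in capitals. These were the highest-ranked intergenic, intronic and coding-exon regions that had no small RNA gene nearby (the first-ranked region, described further on, was passed over), where rank is the mean of the q score rank in each replicate. The q score, which the lists give without a header, was read as minus 10 times the log10 of the FDR-adjusted p-value of ChIP against input. The last sequence is a comparison peak, the highest-ranked intronic peak that held the median CpG number of the CpG-poor reproducible peaks outside promoters. All sequences were read from the soft-masked GRCm38 (mm10) assembly.
Tex44 (intergenic), chr1:86434488-86434637, plus strand: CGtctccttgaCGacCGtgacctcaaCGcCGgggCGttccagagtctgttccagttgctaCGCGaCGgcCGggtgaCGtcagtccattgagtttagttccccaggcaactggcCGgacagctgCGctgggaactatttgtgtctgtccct
E030044B06Rik (intron), chr19:40873286-40873435, plus strand: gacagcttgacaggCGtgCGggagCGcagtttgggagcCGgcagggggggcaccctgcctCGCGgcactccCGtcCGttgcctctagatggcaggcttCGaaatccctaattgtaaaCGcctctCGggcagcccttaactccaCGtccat
Prx (coding exon), chr7:27507901-27508050, plus strand: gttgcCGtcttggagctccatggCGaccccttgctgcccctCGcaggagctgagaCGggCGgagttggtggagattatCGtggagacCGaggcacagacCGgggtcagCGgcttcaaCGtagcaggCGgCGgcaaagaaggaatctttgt
Gm36897 (intron, CpG-poor comparison), chr6:136469407-136469556, plus strand: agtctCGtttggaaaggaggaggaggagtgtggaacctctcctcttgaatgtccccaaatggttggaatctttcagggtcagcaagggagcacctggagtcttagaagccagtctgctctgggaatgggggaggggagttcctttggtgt
The 3 windows held 13, 12 and 12 CpG dinucleotides, and the comparison window held 1. The region near Tex44 had q scores of 689 and 245 in replicates 1 and 2, the region in E030044B06Rik 327 and 171, the region in Prx, which encodes the myelin protein periaxin, 396 and 159, and the CpG-poor peak in Gm36897 214 and 134. The CpG-poor example was below the 3 CpG-rich ones in both replicates, but it was limited to peaks with the median CpG number. The highest q scores among all CpG-poor peaks were 1198 in replicate 1 and 678 in replicate 2, above those of the 3 examples.

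Of all replicate 1 peaks, 25.1% were found in replicate 2, and of those outside promoters 11.9%. Of the 1295 CpG-rich peaks outside promoters 565, or 43.6%, were found, and the other 730 were not. Found means that a single replicate 2 peak covered at least 50% of the length. With an overlap of 1 bp 704 of the 1295 counted, so some of the 730 did overlap a replicate 2 peak. With the roles of the lists exchanged, the same rule took 753 of the 38832 replicate 2 peaks. Each of the 565 regions was matched to a different replicate 2 peak. The nearest values on either side of each limit were close. For the CpG ratio they were 0.6005 in Suox, a sulfite oxidase gene, and 0.5992 near Shisa4. For GC content they were 50% near Gm8579 and 49.6% in Slc26a8. A region in Chadl lay 2021 bp and a peak in Macf1 1997 bp from a curated start, and a region in Exoc3l4 was covered to 50.4% against 49.9% for a peak where Msl3l2 and Tbc1d32 overlap.

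The q score of the regions ranged from 30.6 to 1258 with a median of 106 in replicate 1, and from 30.1 to 737 with a median of 57.9 in replicate 2. The log2 ratio of ChIP over input had a median of 3.24 in replicate 1 (1.60 to 7.05) and 2.54 in replicate 2 (1.26 to 5.78). Replicate 1 gave the higher q score for 496 regions and replicate 2 for 69. Over the 565 regions Spearman's rho between the replicates was 0.744 for the q score and 0.316 for the log2 ratio, given as a description, since the regions share their libraries. Both q scores were above 60 for 255 regions, or 45.1%, where the share among all 14638 reproducible peaks was 51.6%. In replicate 1 the median q score was 223 for the 7705 reproducible CpG-rich promoter peaks and 46.3 for the 4440 reproducible CpG-poor peaks outside promoters. By q score the regions thus lay between these groups. The same order held for the q score in replicate 2, with medians of 91.3, 57.9 and 41.9. For the log2 ratio the medians of promoter peaks, regions and CpG-poor peaks were 3.94, 3.24 and 2.71 in replicate 1. In replicate 2 they were 2.72, 2.54 and 2.54, so there the regions and the CpG-poor peaks did not differ. Peak width had a median of 1359 bp in replicate 1 and 1144 bp in replicate 2.

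**Figure D1:**
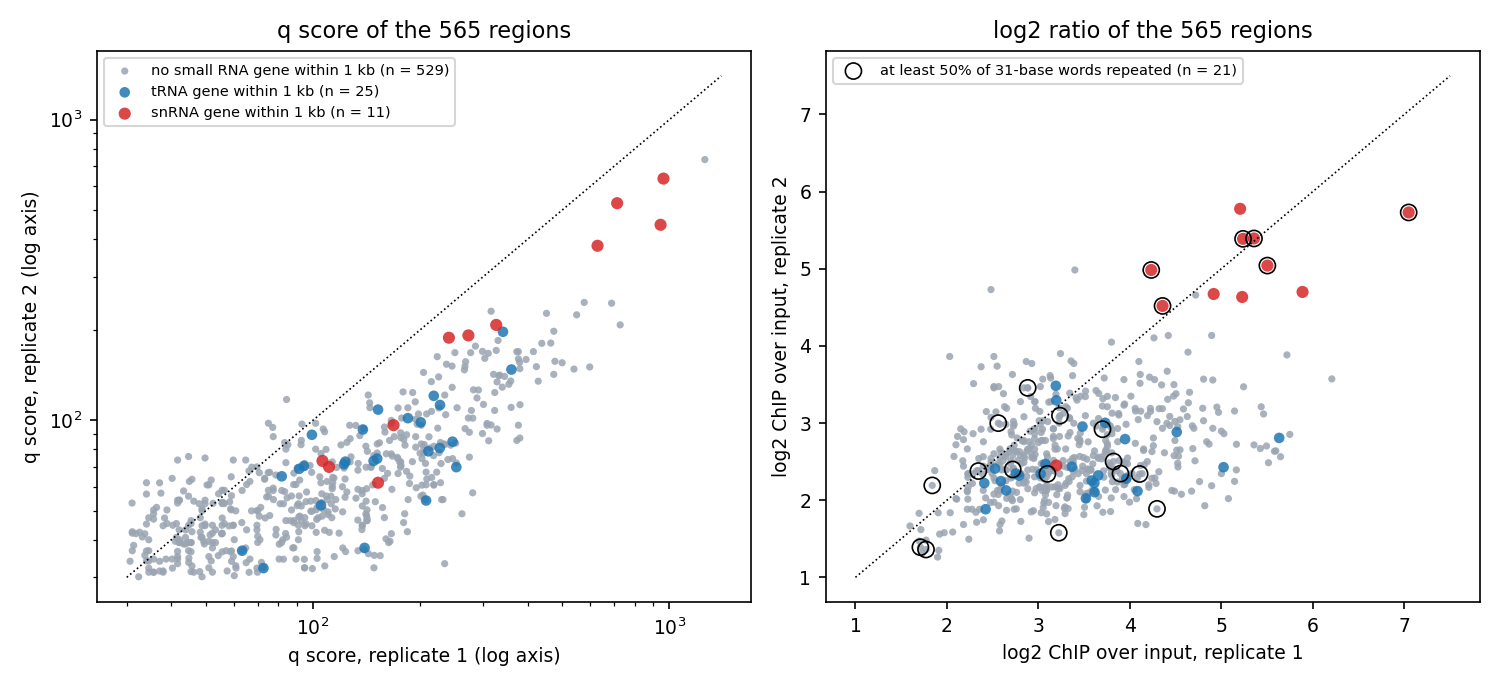
Each point is one of the 565 regions; the left panel plots the q score (both axes logarithmic) and the right panel the log2 ratio of ChIP over input, replicate 1 on the horizontal and replicate 2 on the vertical axis, with the line of equality dotted. Red points (snRNA gene within 1 kb, n = 11) gather at the upper right of the log2 panel, blue points are regions near tRNA genes (n = 25), and circles mark the 21 regions with at least 50% of their 31-base words present elsewhere in the genome.

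Spliceosomal RNA genes held the highest ranks after the first. Regions 2 to 5 of the ranking each held an snRNA gene that RefSeq annotates only as a predicted model, so that the rule did not count it as a promoter. At chr11:101644705-101647591, which holds the U2 gene Gm23971, the q score was 963 in replicate 1 and 637 in replicate 2, with log2 ratios of 7.05 and 5.73. The neighbouring U2 gene Gm24950, at chr11:101639442-101643534, had q scores of 714 and 528. A further U2 gene, Gm25360 at chr1:72225228-72226997, had 945 and 447, and the U1 gene Gm24830 at chr3:96327268-96329552 had 629 and 381. U1 and U2 RNA recognise the 5′ splice site and the branch point of introns and are transcribed from their own small, strong promoters. In all, 11 regions had an snRNA gene of the RefSeq annotation within 1 kb, 6 of U1, 4 of U2 and 1 of U6, with log2 ratios from 3.20 to 7.05 in replicate 1 and from 2.45 to 5.78 in replicate 2. Of these, 4 lay in a cluster of U1 genes near Eapp on chromosome 12, with q scores of 273 and 192, 241 and 188, 168 and 96.3, and 106 and 73.2. Between 5.68% and 100% of the 31-base words in the 11 regions also occurred elsewhere in the genome. Reads that fitted several places were assigned by the authors to a single place at random, and its part in these values was not tested.

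The first-ranked region, chr17:39842517-39849410, had the highest q scores, 1258 and 737, but log2 ratios of 2.32 and 1.71, below the medians of the 565. It was 6894 bp wide, lay 101110 bp from the nearest curated start (Esp38, a pheromone peptide gene), and held the start of the GENCODE lincRNA Gm26917. This interval is known to hold a copy of the ribosomal RNA transcription unit. A region near Gm8579, chr6:3200934-3202158, shared 34% of its 31-base words with it, scored 154 and 84.1, and reached a log2 ratio of 1.77 in replicate 1 and 1.36 in replicate 2. Altogether 13 regions had log2 ratios under 2 in both replicates. They included introns of Cdk8, a kinase of the Mediator complex (q scores 286 and 176, log2 ratios 1.92 and 1.56), of Filip1l and Cmss1 (246 and 151, 1.77 and 1.48), and of Jarid2, a subunit of Polycomb repressive complex PRC2 (58.1 and 44.5, 1.71 and 1.39). The share of repeated words was 19.2% in the first-ranked region, 5.34% in Cdk8, 31.5% in Filip1l and Cmss1, and 63.2% in Jarid2. It counts only copies present in the assembly, so a low share does not show that a sequence is single-copy. Over all 565 regions the median share was 0.0831%, 489 regions had less than 10%, and 21 had at least 50%.

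A tRNA gene lay within 1 kb of 25 regions, 4.42% (exact 95% interval 2.88 to 6.46%), compared with 0.405% of the CpG-poor reproducible peaks outside promoters, 0.548% of the CpG-rich peaks not found in replicate 2 and 0.311% of the CpG-rich promoter peaks. The interval and all others below cover counting error over regions only. tRNA genes are transcribed by RNA polymerase III from promoter elements within the gene. The strongest, chr10:91180266-91182632, had genes for tRNA-Asp and tRNA-Trp within that distance and q scores of 341 and 197. A tRNA-Thr gene near Mir193a followed with 361 and 147, and a tRNA-Gly gene near Wnt10a with 218 and 121. A region near Trim55 had 4 tRNA genes within 1 kb, for tRNA-Ala, tRNA-Arg and tRNA-Tyr, and scored 185 and 102. Unlike the snRNA genes, tRNA genes were not accompanied by high log2 ratios: their medians were 3.48 and 2.34, beside 3.24 and 2.54 for all regions. None of the 25 regions had 50% or more repeated words, and the highest share was 12.8%. snRNA genes lay near 1.95% of the 565 regions (0.976 to 3.46%) and 0.315% of the CpG-poor peaks. No snoRNA, miRNA or histone gene of the RefSeq annotation lay within 1 kb of any of the regions (exact upper limit 0.651%). The rule had removed peaks within 2 kb of a curated start, and with them those beside such genes with curated starts. Under the same distance limit the CpG-poor peaks had 4, 0 and 2 of 4440, and the CpG-rich promoter peaks had 44, 82 and 20 of 7705. No absence is therefore read from the count. All these counts used RefSeq genes. GENCODE also lists the snRNA Gm25044, 85 bp from the region nearest to Onecut3, and for 3 regions its nearest start within 2 kb was of a miRNA, among them Gm23935 in an intron of Zc3h7a.

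The regions were mostly intergenic with respect to curated genes. Exons and introns were those of curated RefSeq transcripts, here and below. Intergenic sequence can therefore hold predicted or GENCODE transcripts, and it included the regions near snRNA and tRNA genes. Of the 565 midpoints 341 were intergenic, 60.4% (56.2 to 64.4%), 113 lay in introns, 20% (16.8 to 23.5%), and 111 in exons, 19.6% (16.4 to 23.2%). The CpG-poor peaks outside promoters were 45.7% intergenic (44.2 to 47.1%), 46.7% intronic and 7.64% exonic, so the intergenic and intronic intervals of the 2 groups did not overlap. The CpG-rich peaks not found in replicate 2 were 43.4% intergenic and 31.9% exonic. Of the exonic regions 91 were in coding sequence, 12 in 3′ and 4 in 5′ untranslated exons, and 4 in exons of non-coding transcripts. The distance to the nearest curated start ran from 2021 to 618884 bp with a median of 14417 bp, and 109 regions lay within 5 kb and 32 beyond 100 kb. The autosomes held 551 regions, the X chromosome 13 and the Y chromosome 1.

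Many regions coincided with transcript starts that the curated set lacks. A start of a predicted RefSeq model or of a GENCODE transcript lay within 2 kb of 330 regions, 58.4% (54.2 to 62.5%), and inside the peak for 255, 45.1%. For the CpG-poor peaks outside promoters the share within 2 kb was 27.6% (26.3 to 28.9%), and for the CpG-rich peaks not found in replicate 2 it was 46.6% (42.9 to 50.3%). Predicted RefSeq starts accounted for 35.2% and GENCODE starts for 48.1% of the regions, with overlap. In 196 of the 330 the start belonged to a gene with curated starts elsewhere, and in 134 to a gene with none. A GENCODE start lay within 2 kb of 272 regions. By type of the nearest GENCODE transcript, 78 of these were protein-coding, 43 retained introns, 42 processed transcripts, 41 lincRNAs and 20 processed pseudogenes. The remaining 235 regions, 41.6%, had no start of a RefSeq or GENCODE transcript within 2 kb. Here and below, tRNA genes were not counted as starts. Some of the 235, such as the region near Wnt10a and a tRNA-Gly gene, thus had a tRNA gene within 1 kb.

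**Figure D2:**
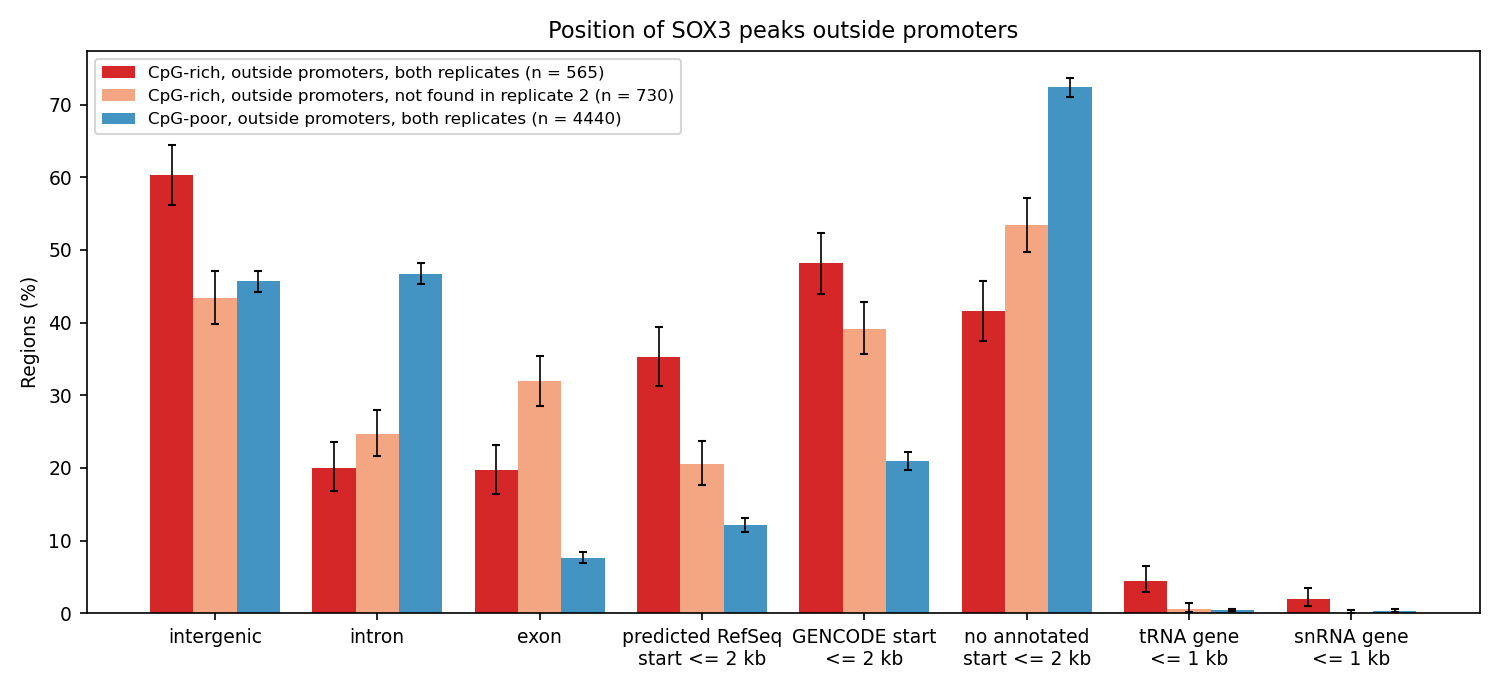
Bars give the percent of regions (vertical axis) by position of the midpoint and by nearby starts or small RNA genes for the 565 regions (red), 730 CpG-rich peaks not found in replicate 2 (orange) and 4440 CpG-poor reproducible peaks (blue), with exact 95% binomial intervals. The red bars are the highest for intergenic position (60.4%), for both kinds of other start, for tRNA genes (4.42%) and for snRNA genes (1.95%). Position was read from curated RefSeq transcripts.

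Among the intergenic regions away from small RNA genes, the highest ranks after the region on chromosome 17 were held by the region 6693 bp from Tex44, already shown, and by chr1:134554928-134557695, 2483 bp from Kdm5b, which encodes a histone H3K4 demethylase. The latter scored 577 and 247, and its log2 ratio was 4.41 in replicate 1 and 3.67 in replicate 2. At chr13:48545112-48547184, 6840 bp from the let-7 gene Mirlet7a-1 and over the start of the GENCODE lincRNA 6720427I07Rik, the q scores were 728 and 208 and the log2 ratios 5.75 and 2.85. The region at chr15:85668676-85672570, 31203 bp from Lncppara, had 549.5 and 224, and the region 20570 bp from Tcf12, a basic helix-loop-helix factor gene, had 452 and 227. Of these 5 regions the one near Mirlet7a-1 had an annotated start within 2 kb, and the others had none. A second wide region beside Tex44, chr1:86437588-86444331, was 6744 bp wide and had 439 and 180.

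Among the exonic regions the strongest, chr5:20701383-20703245, lay in the 3′ untranslated exon of Magi2, a scaffold protein of cell junctions, with q scores of 415 and 169. It overlapped the start of a GENCODE processed transcript. The coding exon of Prx followed, and then one of Cacna1a, which encodes the pore of a neuronal calcium channel, with 331 and 184. Both coincided with starts of other transcripts, Gm15541 and Gm39212 among the predicted models. An exon of the non-coding Gm14486 had 424 and 151, and the 5′ untranslated exon of Pura, a single-stranded nucleic acid binding protein gene, 355 and 132. Of the intronic regions, chr19:40872679-40874042 in E030044B06Rik was the strongest, with log2 ratios of 4.95 and 3.21. An intron of Btbd19 had q scores of 303 and 161 and held the start of a retained-intron transcript.

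The widest of all, 7142 bp at chr11:69406877-69414018, spanned sequence within Kdm6b, which encodes an H3K27 demethylase, where the q score was 359 and then 135 in replicate 2, and the log2 ratio 5.72 and 3.88. It lay 2176 bp from the curated start and over predicted and GENCODE starts of the same gene. The midpoints fell within 223 genes, 0.852% of the 26180 curated genes. Only 4 of these held more than a single region. Nfia, which encodes a CTF/NF-I family transcription factor, held 4 regions in its introns, with q scores of 137 and 51.8, 160 and 40.3, 108 and 32.7, and 34.6 and 40.0. Each of Rere, Dst and Sptbn4 held 2. The pair in Rere, an atrophin family corepressor gene, had 218 and 81.9, and 98.1 and 70.7, and both overlapped starts of predicted Rere models. In Dst, a cytoskeletal linker gene, they had 54.3 and 56.9, and 42.2 and 40.0, and in coding exons of Sptbn4, a spectrin gene, 90.3 and 52.0, and 31.1 and 42.1.

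The background of all sequence that met the same CpG and GC limits was taken from the whole genome. Runs of 500 bp windows gave 27351 orphan islands, more than 2 kb from any curated start, and 14635 promoter islands. A peak found in both replicates overlapped 1066 orphan islands, 3.9%, and 62.3% of the promoter islands (61.5 to 63.1%). The 565 regions themselves overlapped 565 orphan islands, and the remainder were touched by peaks with a midpoint or an edge elsewhere. Repeats made up much of the background: 16489 orphan islands were at least 50% repeat-masked, and 12 of these were occupied, 0.0728% (0.0376 to 0.127%). Of the 10862 others 9.70% were occupied (9.15 to 10.3%). Among these unmasked islands the share was 13.7% (12.6 to 14.8%) with a predicted or GENCODE start within 2 kb and 7.43% (6.82 to 8.07%) without. It was 12.7% for intergenic, 6.64% for intronic and 8.08% for exonic islands. Near small RNA or histone genes 57 of 120 were occupied, 47.5% (38.3 to 56.8%), against 9.28% of the rest. On the X chromosome the share was 9.21% (5.79 to 13.7%) and on the autosomes 9.71%, a difference within the intervals, while for promoter islands it was 44.7% (40.1 to 49.2%) and 63.0% (62.2 to 63.8%).

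Below 2000 bp, longer islands were occupied more often, and they also offer more bases for a peak to overlap. Without a RefSeq or GENCODE transcript start nearby, the share was 3.20% (2.56 to 3.94%) from 500 to below 600 bp. It rose to 24.1% (20.2 to 28.3%) from 1200 to below 2000 bp, and with such a start from 4.92% to 34.2%. Over the same lengths promoter islands went from 20.7% to 75.4%. In each length class below 2000 bp the promoter islands were above both kinds of orphan island. From 2000 bp the share was lower again for promoter islands, 68.0% (65.7 to 70.2%), and was 10.7% (4.03 to 21.9%) for orphan islands without a start, 6 of 56, and 41.1% (31.1 to 51.6%) for those with a start, 39 of 95.

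**Figure D3:**
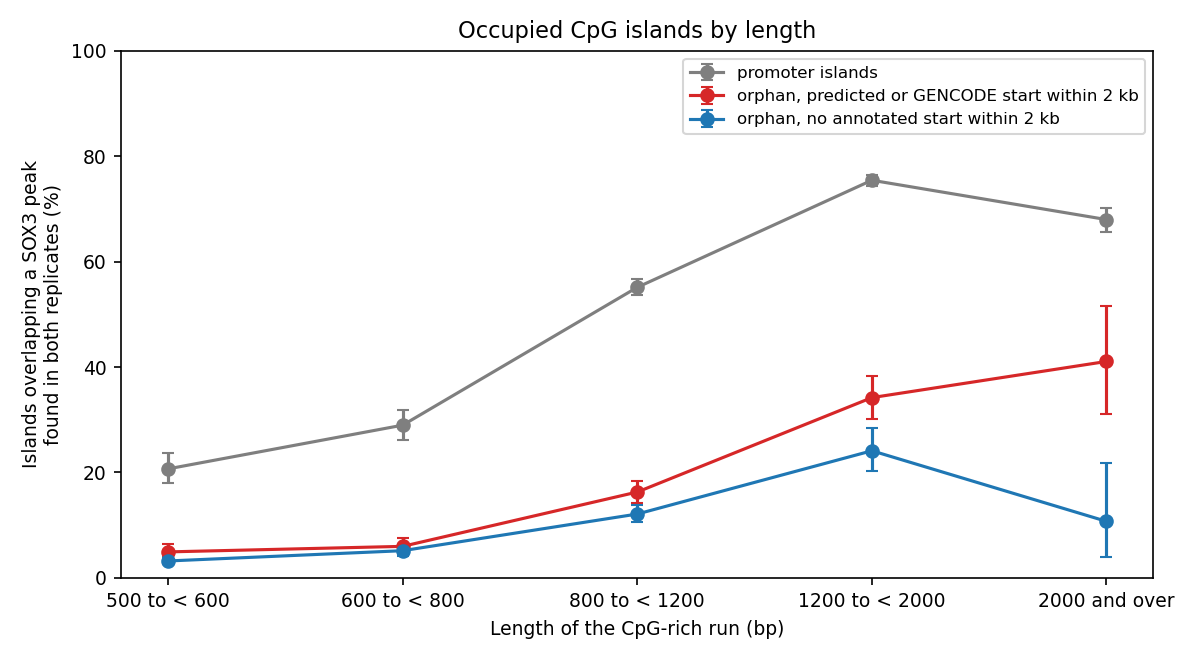
The vertical axis gives the percent of CpG islands that overlap a SOX3 peak found in both replicates and the horizontal axis their length in bp, with exact 95% binomial intervals; orphan islands at least 50% repeat-masked are left out. Promoter islands (grey) lie above orphan islands with a predicted or GENCODE start (red) and without such a start (blue) at every length. From 1200 to below 2000 bp the shares are 75.4%, 34.2% and 24.1%.

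Some of the sequence words searched at the region centres differed in share from the other groups, and others had similar shares. The GC box GGGCGG, the word bound by SP and KLF family factors, was searched on both strands of the central 500 bp and found in 412 regions, 72.9% (69.1 to 76.5%). It was present in 58.5% (54.8 to 62.1%) of the CpG-rich peaks not found in replicate 2 and 85.3% of the CpG-rich promoter peaks. Of the 7017 unmasked orphan islands without a peak in either list 28.6% held it, and of the CpG-poor peaks 20.4%. Of all 31601 windows of this length at curated starts 51.2% held it. The word holds a CpG, and the central windows of the peakless islands were poorer in CpG and GC, with a median CpG ratio of 0.631 and GC content of 52.2% against 0.776 and 63% in the regions. The ETS word CCGGAAG was found in 13.3% of the regions (10.6 to 16.4%), 8.27% of the peakless islands and 24.2% of the promoter peaks, the NRF1 word GCGCATGC in 6.55%, 3.51% and 6.48%, and the cyclic AMP response element TGACGTCA in 2.65%, 1.37% and 3.78%. For the YY1 word AAGATGGC the share was 2.30% (1.23 to 3.90%) in the regions, 4.05% in the peakless islands and 7.63% in the promoter peaks. The 3 other words searched, the CCAAT box, the E-box CACGTG and the telomere repeat TTAGGG, were in 34.9%, 13.6% and 13.3% of the regions, 39.3%, 16.4% and 13.5% of the peakless islands, and 36.1%, 13.3% and 12.6% of the promoter peaks. A match is a description of the letters and not a bound site.

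The CTCF core, the central part of the recognition sequence of the insulator protein CTCF, was found in 21 regions, 3.72% (2.32 to 5.63%). This was near the 4.14% of the CpG-poor peaks outside promoters and above the 0.597% of the CpG-rich promoter peaks, 0.822% of the CpG-rich peaks not found in replicate 2, 0.641% of the peakless islands and 0.671% of all curated start windows. Of the 21, 2 lay in genes and 6 had a predicted or GENCODE start within 2 kb. Matches are shown because CpG-rich promoter peaks rarely held the core. The 4 highest-ranked, untranslated exons left out, follow, each on the strand of the match, with the core in capitals and 15 bp on either side, named by the nearest curated start.
Chaserr, chr7:73618500-73618541, minus strand: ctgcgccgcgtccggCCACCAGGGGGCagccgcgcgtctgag
Foxk1, chr5:142367715-142367756, minus strand: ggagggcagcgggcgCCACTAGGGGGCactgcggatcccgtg
Hmgb1-rs17, chr8:33517185-33517226, minus strand: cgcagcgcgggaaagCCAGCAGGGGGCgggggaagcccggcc
Stard10, chr7:101310775-101310816, plus strand: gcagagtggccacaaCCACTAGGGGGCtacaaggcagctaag
These regions had q scores of 478 and 157 near Chaserr, 277 and 168 near Foxk1, 132 and 96.1 near Hmgb1-rs17, and 208 and 67.2 near Stard10. The match lay 20, 221, 71 and 137 bp from the peak midpoint. The region named by Hmgb1-rs17 lay 32048 bp from that start and overlapped predicted and GENCODE starts of Tex15. Over the 21 the median q score was 99.3 in replicate 1 and 55.5 in replicate 2.

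The SOX consensus, read as 2 bases that are A or T, then CAA, a base that is A or T, and G, was less frequent at the midpoints than beside the regions. It was found in the central 100 bp of 27 regions, 4.78% (3.17 to 6.88%), and in 140 of 1130 windows of the same length placed 1 kb beyond the edges, 12.4% (10.5 to 14.5%). The CpG-poor peaks had it at 11.4% of midpoints (10.5 to 12.3%) and in 10.5% of flanking windows, and the CpG-rich promoter peaks at 2.57% and 13.6%. In the peakless orphan islands the share at the midpoint was 8.14% (7.51 to 8.80%). The word is rich in A and T, whereas the rule selected windows with a GC content of at least 50%. The part of base composition in the lower share was not tested.

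**Figure D4:**
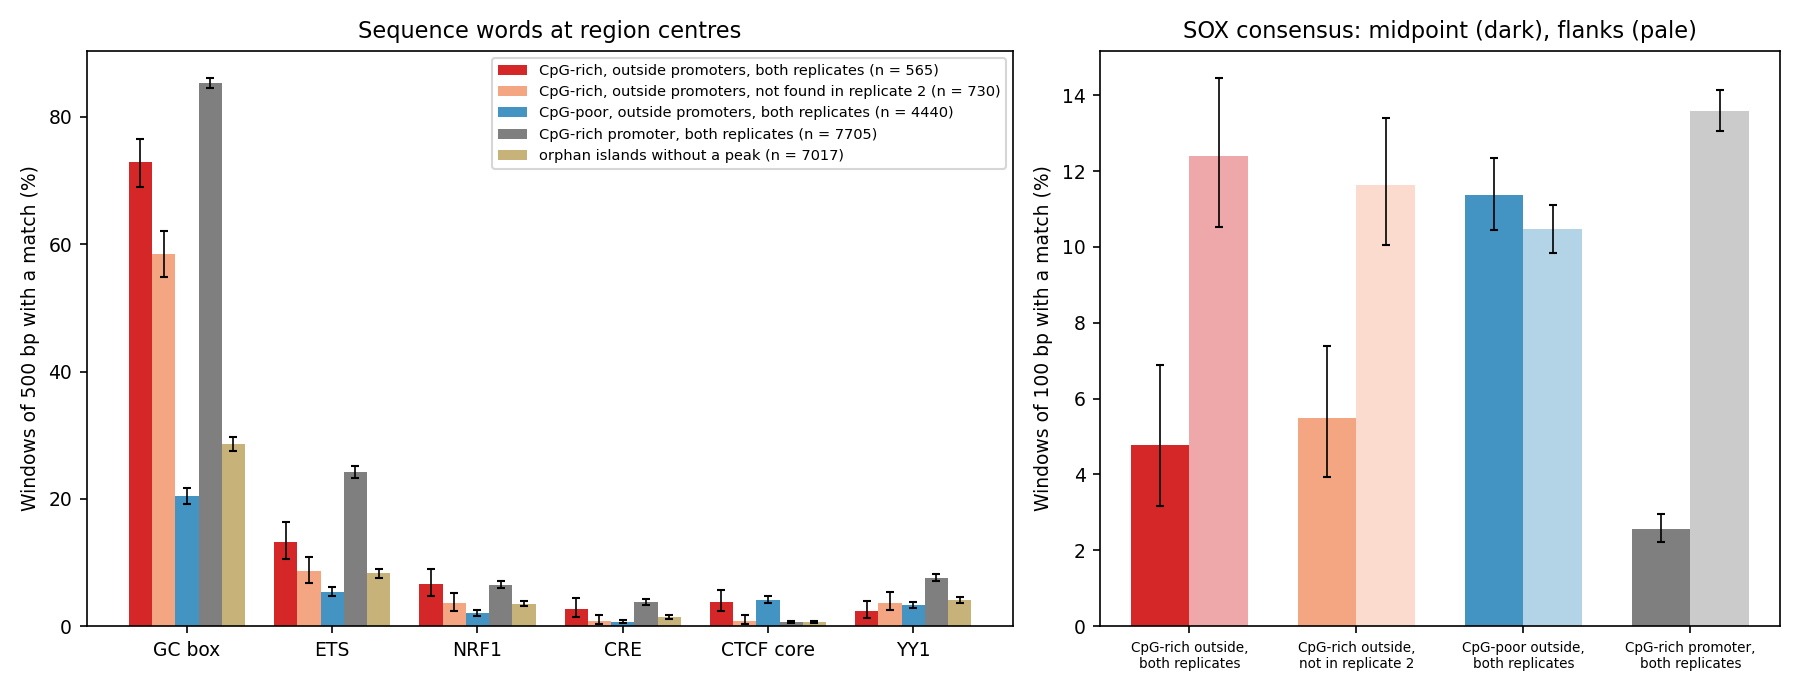
The left panel gives the percent of 500 bp windows (vertical axis) that hold each of 6 sequence words in the 565 regions (red), the CpG-rich peaks not found in replicate 2 (orange), CpG-poor reproducible peaks (blue), CpG-rich promoter peaks (grey) and peakless orphan islands (tan); the right panel gives the percent of 100 bp windows with the SOX consensus at midpoints (dark) and 1 kb beyond the edges (pale). Bars carry exact 95% binomial intervals; the GC box stands at 72.9% in the red group and the SOX consensus at 4.78% at its midpoints against 12.4% in its flanks.

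ChIP-nexus regions overlapped few members of the set. By the study's reporting summary, the ChIP-nexus libraries kept far fewer unique reads than those of ChIP-seq. The deposited nexus lists held 110 regions in replicate 1 and 18 in replicate 2. Of the 565 regions 11 overlapped a replicate 1 nexus region, 1.95% (0.976 to 3.46%), and none a replicate 2 region. For the CpG-poor peaks the count was 6 of 4440 and for the CpG-rich promoter peaks 15 of 7705. Of the 11, 9 had an snRNA gene within 1 kb, with nexus fold enrichments from 10.5 at the U2 gene Gm25360 to 24.9 at the U1 gene Gm22317. The others were the first-ranked region on chromosome 17, with a fold of 5.63, and an intron of Zc3h7a, with 6.002. In ChIP-seq that intron scored 167 and 76.0, its log2 ratio was 1.91 and 1.35, and 48.5% of its 31-base words were repeated elsewhere.

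Gene lists were counted by the genes that held a midpoint and by the nearest curated start. Of the 86 chromatin regulators 4 held a region, 4.65%, compared with 0.852% of all curated genes. They were Kdm6b, described above, Cbx7, which encodes a chromodomain subunit of Polycomb complex PRC1 (q scores 183 and 67.6), Kdm2b, whose product binds unmethylated CpG through a CXXC domain (48.8 and 50.7), and Jarid2. A further pair lay near Cbx8, another PRC1 chromodomain gene, 2504 and 5964 bp from its start, with 94.8 and 44.6, and 69.9 and 39.2. The median gene length of this list was 34.8 kb, against 13.5 kb for all genes, and longer genes offer more sequence. Of the 50 unmasked orphan islands nearest to these genes 12 were occupied, 24.0%, beside 9.70% of all.

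Of the 133 homeobox genes 6 held a region, 4.51%, beside 0.852% of all curated genes. For 8 regions the nearest start was that of a homeobox gene. The highest-ranked were 18639 bp from Onecut3 (q scores 201 and 83.4), in an intron of Bcl11b, a zinc-finger gene without a homeobox that the list holds (142 and 46.3), and 115904 bp from Barhl2 (137 and 43.3). The coding exon of Pitx3 had 45.5 and 46.3, a region in a coding exon of Asb18 and nearest to Gbx2 49.3 and 39.5, and the region nearest to Dlx4 42.2 and 39.2. Homeobox genes were the nearest to 302 unmasked orphan islands, 2.78% of all such islands. Of the 302, 10 were occupied, 3.31%, beside 9.70% of all. The share of genes was thus above that of all genes, and the share of islands below that of all islands. For the other developmental transcription factors the counts were 5 of 131 genes, 3.82%, and 33 of 288 islands, 11.5%. The shares of all genes and islands were again 0.852% and 9.70%. By nearest start these factors had 17 regions. The highest-ranked of these lay 33196 bp from Foxk1, already shown, then 4307 bp from Hes1, a basic helix-loop-helix repressor of the Notch pathway (234 and 121), and 9693 bp from Gata4, a zinc-finger factor of Sertoli and other somatic cells (151 and 77.8). Regions nearest to Nr2f1 and Pax2 had 145 and 70.1, and 123 and 63.8. A region in an intron of Sox2ot, nearest to Sox2, the SOXB1 relative of SOX3, had 55.6 and 41.9 and was picked after its values were seen.

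Of the signalling genes Wnt10a and Fgf9 held a region, 2 of 91, and 14 of 82 islands nearest to such genes were occupied, 17.1%. The region near Wnt10a and the tRNA-Gly gene was the strongest, followed by chr7:98814600-98816941 near Wnt11, with 2 tRNA-Pro genes within 1 kb and q scores of 122.2 and 71.35. Regions without a tRNA gene lay near Wnt7b (65.1 and 61.1), in a coding exon of Wnt10a (71.3 and 51.3), near the Wnt receptor gene Fzd9 (49.8 and 54.2) and in an intron of Fgf9 (48.8 and 40.7). None of the 81 spermatogonial and germ cell genes held a region, and at the 0.852% of all genes fewer than 1 would be reached, so nothing is read from the count. Such genes were nearest to 3, namely Lin28b, which encodes a repressor of let-7 maturation (233 and 83.4), Utf1, a chromatin factor of undifferentiated spermatogonia (164 and 85.7), and Nanos2, an RNA-binding regulator of spermatogonial stem cells (106 and 47.9). The Lin28b region overlapped predicted and GENCODE starts of Lin28b itself, and the last lay in a coding exon of Nova2, 28921 bp from Nanos2. Of 52 islands nearest to these genes 4 were occupied, 7.69%. Of the 57 imprinted genes 3 held a region, 5.26%, beside 0.852% of all curated genes, and their median gene length was 38.7 kb, beside 13.5 kb for all curated genes. The 3 regions lay in introns of Cdh15 (81.6 and 39.2) and Igf2 (37.1 and 31.5) and a coding exon of Zfp64 (52.2 and 39.2). Of the nearest islands 4 of 51 were occupied, 7.84%.

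**Figure D5:**
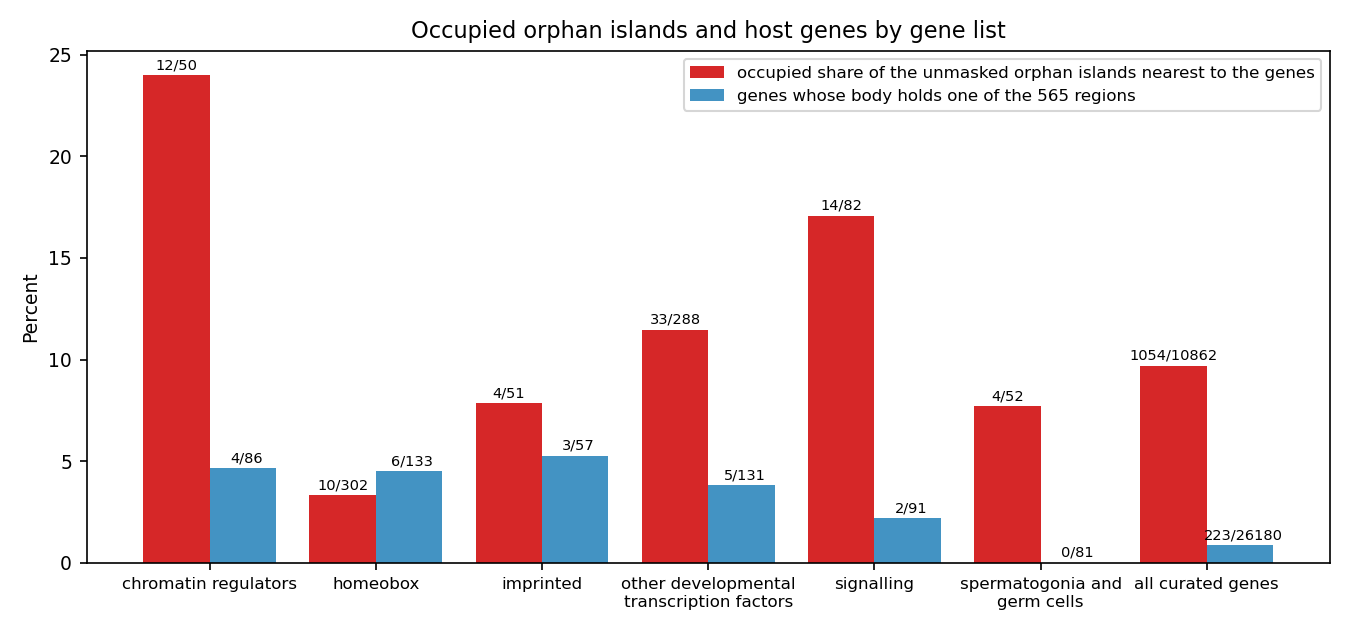
For each gene list, red bars give the percent of the unmasked orphan islands nearest to its genes that overlap a SOX3 peak in both replicates and blue bars the percent of its genes whose body holds one of the 565 regions, with counts above the bars. Chromatin regulators have the highest island share (12 of 50) and homeobox genes the lowest (10 of 302), beside 9.70% of all 10862 islands.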

How the data were processed

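The ChIP-seq lists hold, per replicate, peaks with 3 values from the authors. The score columns of the deposited lists (minus 10 times the log10 of the p-value and of the FDR-adjusted p-value, the latter called q score) and the log2 ratio of ChIP over input have no header, so their names were inferred from column order and values. Per the study's methods, the authors aligned reads to mm10 with Novoalign, placed reads with several fits at random, removed duplicates with Picard and called peaks with USeq. The deposited ChIP-nexus lists, called by the authors with MACS2 2.1.1, give a score, the ratio (fold enrichment) at the summit and −log10 p and q values. No deposited list gives read counts, so no depth was taken from them. The study's reporting summary lists the reads of each library, which were not used here.

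Of 19 samples, 4 had a list that was analysed here. Peaks were overlapped, measured against curated RefSeq starts of GRCm38 (26180 genes), and scanned for CpG, words and nearby transcripts with Python 3 scripts that gave the same overlaps as bedtools on simulated regions. CpG islands were runs of 500 bp windows, moved in steps of 10 bp, that met the limits of the rule. Such windows were joined where they overlapped or touched, so another window inside an island, such as the central one, can fall short of the limits. Among the peakless islands the lowest GC content of the central window was 41%. Repeated sequence was measured as the share of 31-base words found elsewhere in the assembly. A ChIP-nexus region counted when it overlapped by 1 bp. Shares carry exact (Clopper-Pearson) 95% intervals. No test was run, since the design has a single condition. Named regions were the 10 highest by mean q score rank, the 5 highest per location, the 3 widest, regions with a ChIP-nexus overlap, genes holding several regions, up to 6 per gene list and those at the limits of the rule, and further regions are named where a count called for them. The regions, lists and words were chosen with earlier results of these data known.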

Additional observations from a re-analysis of the deposited data

How the results depend on the processing

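Of 120 values recomputed under alternatives, 81 stayed close to the main value (counts within 1.5 times, shares inside the 95% interval, the median q score within 1 SD of the replicate medians), and 39 moved. The settings that removed small RNA genes or repeated sequence were chosen after seeing the data. The number of regions was 235 when starts of all annotated transcripts were used, 291 with a CpG ratio of 0.75 and GC of 55%, and 255 with q scores above 60 in both replicates. From a single replicate it was 924 to 1295. The intergenic share was 65.4% at 5 kb from a start, 70.98% with q scores above 60, and 50.8 to 53.8% from a single replicate. Other starts lay near 65.6% with the stricter CpG limits, 62.7% with q scores above 60, and 51.7 to 56.3% from a single replicate. The GC box share was 65.1% with all annotated starts, 67.6% with a 200 bp CpG window, 84.9% with the stricter CpG limits, 79.6% with q scores above 60, and 64.8 to 67.4% from a single replicate. The SOX consensus share was 8.85% in 200 bp, and the word AACAAT in place of the consensus was at 2.12% of midpoints; both were also rarer there than in the flanks (23.4% and 4.96%). ChIP-nexus overlaps numbered 0 with all annotated starts, 2 without small RNA genes and 5 without regions of 50% or more repeated words. The median q score was 141 with the stricter CpG limits, 198 with q scores above 60, 54.4 with replicate 2 as the base list, and 50.01 to 58.7 from a single replicate.

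The occupied share of orphan islands was the value that depended most on the definitions. It was 6.18% with a 1 bp overlap, 4.28% and 3.29% at 1 kb and 5 kb from a start, 2.34% with all annotated starts, 1.91% and 9.05% with 200 bp and 1000 bp windows, 15.8% with the stricter CpG limits, 1.63% with q scores above 60, 5.22% with replicate 2 as the base list, and 7.64 to 12.6% from a single replicate. For other starts the setting with all annotated starts gives 0 by construction and has no value. No paired analysis was possible because no value here comes from a test between groups. The lists hold peaks past the authors' threshold and no read counts, so an island without a peak is not shown to lack SOX3.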
